A study of Homo sapiens with 16 samples.

Results

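Huh7 and Hep3B are established human hepatocellular carcinoma (HCC) cell lines, and their parental cells are the starting material from which Sorafenib-resistant lines were raised. The parental cells of both lines were compared here as they stood before any Sorafenib, using 4 of the 16 libraries of the series, with 2 replicates for each line. Parental cells were labelled as untreated and neither line carried an engineered allele. The other 12 libraries hold, for each line, 2 replicates of untreated cells labelled DMSO, the solvent, and 2 each of resistant cells raised in increasing (IR) or constantly high (CR) Sorafenib, both labelled with 7 µM of the drug. The DMSO libraries served as a second look at the same line difference. Levels of the resistant ones were read only for genes silent in parental cells. All 16 libraries, in 8 groups, entered the model that gave the spread. The labels do not say that the 2 replicates came from separate cultures. The study's methods speak of biological replicates, but of another number than the libraries analysed here. The p-values are thus taken to measure the spread between replicate libraries, which may be technical. That spread was estimated over all 8 groups, so for a single gene it can exceed that of its parental replicates.

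Hepatocytes make most plasma proteins, among them albumin, the apolipoproteins, the fibrinogen chains and many complement proteins, under a network of transcription factors that includes HNF4A, the FOXA family and CEBPA. The fetal liver expresses a further set, such as alpha-fetoprotein (AFP), glypican-3, the growth factor IGF2 and its neighbour H19, which falls silent after birth and is often switched on again in HCC. HCC lines retain these programmes to unequal degrees, and each line also carries genes that are silent in others. Sequenced libraries held between 68722229 and 74663662 reads on genes in parental Huh7 and between 71089113 and 74283128 in parental Hep3B cells, and the 10 most abundant genes took 3.75% to 4.79% of them. At this depth a gene without reads is limited to 3 reads, about 0.0402 to 0.0437 CPM (reads scaled to the library's total, as deposited), which covers counting error only.

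Defining hepatocyte genes were present in all 4 parental libraries. FOXA2, a liver transcription factor, was at 53.3 and 44.6 CPM in Huh7 and at 50.5 and 42.7 CPM in Hep3B, and APOB, the carrier protein of very low density lipoprotein, lay between 1631 and 5914 CPM. Immune markers without a read in any parental library included CD3E, MS4A1, NKG7 and TYROBP, and the summed level of 12 immune markers was 38.8 to 45.4 CPM in Huh7 and 11.01 to 22.3 CPM in Hep3B, most of it lysozyme (LYZ). The 10 endothelial markers summed to 1.602 to 3.55 CPM over the 4 libraries, with TEK and CLEC4G at 0. The 11 mesenchymal markers summed to 293 to 345 CPM in Huh7 against 32.6 to 43.7 CPM in Hep3B, most of it lumican (LUM), while FAP and POSTN had no reads. The 10 cholangiocyte markers summed to 472 to 483 CPM in Huh7 and to 1108 to 1148 CPM in Hep3B. Whether cells of another type contributed to any of these sums was not tested. Of the DMSO libraries, Huh7 replicate 2 stood apart from the other Huh7 libraries by low levels of genes that were otherwise silent in Huh7, and its values are given with the silent genes.

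To show the DNA in front of 2 neighbouring hepatocyte genes with opposite line differences, and of 2 genes that were near the lower end of detection in 1 line, the 250 bases before each start site are printed from RefSeq (build GRCh38.p14, plus strand, chosen as reference sequence and not read from these cells). Capitals mark GTTAAT, a motif found in liver promoters, and TATAAA in the windows of ALB (albumin) and AFP, and every CG dinucleotide in those of GSTP1, which encodes a glutathione transferase, and of SNURF, which shares its window with SNRPN.
ALB, chr4:73404037-73404286: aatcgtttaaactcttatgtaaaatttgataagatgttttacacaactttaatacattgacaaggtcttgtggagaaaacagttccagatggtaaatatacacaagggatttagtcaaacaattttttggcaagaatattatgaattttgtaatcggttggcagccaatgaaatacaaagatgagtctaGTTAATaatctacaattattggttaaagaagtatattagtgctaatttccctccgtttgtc
AFP, chr4:73435971-73436220: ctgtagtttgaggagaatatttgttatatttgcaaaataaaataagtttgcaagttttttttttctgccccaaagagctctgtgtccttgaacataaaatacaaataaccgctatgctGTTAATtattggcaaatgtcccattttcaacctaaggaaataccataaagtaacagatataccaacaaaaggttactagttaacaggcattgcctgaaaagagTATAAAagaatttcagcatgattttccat
GSTP1, chr11:67583562-67583811: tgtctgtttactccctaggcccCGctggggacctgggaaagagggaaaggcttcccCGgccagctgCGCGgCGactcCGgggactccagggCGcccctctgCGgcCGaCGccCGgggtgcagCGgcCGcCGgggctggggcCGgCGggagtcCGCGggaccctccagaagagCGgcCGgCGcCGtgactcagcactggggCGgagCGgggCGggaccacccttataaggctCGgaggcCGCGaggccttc
SNURF, chr15:24954737-24954986: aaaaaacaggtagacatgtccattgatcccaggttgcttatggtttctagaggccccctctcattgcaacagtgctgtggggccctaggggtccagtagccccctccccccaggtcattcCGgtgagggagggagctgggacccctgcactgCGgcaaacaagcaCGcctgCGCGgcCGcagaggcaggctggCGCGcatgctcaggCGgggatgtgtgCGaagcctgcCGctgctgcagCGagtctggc
ALB and AFP are neighbours on chromosome 4, and both windows hold GTTAAT, which begins 61 bases before the start of ALB and 132 bases before that of AFP. Counted on both strands, GTTAAT was present in 2047 of 27305 genes with a promoter window of this length (7.497%). TATAAA, 29 bases before the start of AFP, was present in 3563 of them (13.05%). The GSTP1 window holds 28 CG dinucleotides and the SNURF window 12, where the median is 12 over all genes with a window and 23 over the tested genes with one. These matches describe the reference sequence and are not evidence of binding or of methylation in either line.

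Parental Huh7 and Hep3B differed in a large share of their transcriptome. Genes were tested where 2 or more of the 4 parental libraries reached 1 CPM, and of these 13534 genes 6182 (45.7%) differed, called at an adjusted p below 0.05 by limma on log2(CPM + 1) together with a log2 difference of at least 0.58. There were 2738 genes (20.2%) higher in Huh7 and 3444 (25.4%) higher in Hep3B, so every count of listed genes below is to be read against these shares. The median log2 difference of all tested genes was -0.06, and 504 called genes differed by 3 or more on the log2 scale, 256 of them higher in Huh7 and 248 higher in Hep3B. Values of the 2 lines did not overlap for 82.0% of the tested genes. With other scalings the share of calls that were higher in Huh7 moved from 44.3% to between 48.0% and 50.3%. With 2 libraries against 2, an exact permutation test of a single gene cannot give a p below 0.333, so the calls rest on the spread shared over all groups in the model.

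Among the largest differences in favour of Huh7 were those of a xenobiotic enzyme, matrix proteins and cytokine receptors. GSTP1, which conjugates glutathione to electrophiles (chromosome 11, 67351213 to 67354127 on GRCh37), was at 627 and 393 CPM in Huh7 and at 0.0269 and 0.197 CPM in Hep3B. COL14A1, a fibril-associated collagen, was at 2187 and 2398 CPM in Huh7 and at 3.62 and 5.74 CPM in Hep3B. The groups were far apart for both, with log2 differences of 8.81 (SE 0.21, adjusted p = 5.9e-11 by limma) and 8.68 (SE 0.37, adjusted p = 2.6e-09). LIFR, the receptor of leukemia inhibitory factor, was at 248 and 257 against 0.579 and 1.31 CPM, and OSMR, the oncostatin M receptor, was at 140 and 104 against 0.0404 and 0.197 CPM. Both receptors signal together with gp130, and their Hep3B values lay far below those of Huh7. SPP1 (osteopontin), VCAN (versican), GOLM1 (a Golgi protein used as a serum marker of liver disease), LRRN3, LINC01419 and MAGEB2 were also among the largest, with log2 differences of 6.84 to 7.64.

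The largest difference in favour of Hep3B was that of an imprinted noncoding RNA. H19 (chromosome 11, 2016396 to 2025782) was at 2647 and 3245 CPM in Hep3B and at 2.01 and 2.25 CPM in Huh7. Its log2 difference of -9.87 (SE 0.94, adjusted p = 2.6e-06) was the largest in the data. ESRP1, an epithelial splicing regulator, was at 204 and 150 CPM in Hep3B and at 0.175 and 0.121 CPM in Huh7. MSN (moesin), which links the membrane to actin, was at 161 and 148 CPM against 0.0291 and 0.0402 CPM. In all 3 the lines were clearly separated, and the log2 differences of ESRP1 and MSN were -7.26 and -7.23, with adjusted p of 6.8e-07 and 1.3e-08. SNRPN and SNURF (-8.18 each) and PAQR8 (-7.59) differed by more than ESRP1 and MSN, and S100A14, NT5DC2 and MAGED1 were also among the largest. SNRPN and SNURF overlap and carried nearly the same reads, so they count as a single signal.

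Among all 406 tested genes of the 22 lists by role, 230 differed between the lines, 106 higher in Huh7 and 124 higher in Hep3B. In any list, a gene expressed in a single line entered the test through that line, so the shares called follow in part from the filter. Plasma carriers and acute phase proteins were more often higher in Hep3B: of 29 tested genes, 6 were higher in Huh7 and 12 in Hep3B (62.1% called), with a median log2 difference of -0.66 against -0.06 for all genes. The count of 18 fell to 10 without Huh7 parental replicate 1 and to 9 without Hep3B parental replicate 2, and it was 11 in the DMSO libraries. Of the 18 parental calls, 9 were called with the same sign in the DMSO libraries, where the share over all parental calls was 77.3%. ALB, the most abundant plasma protein, was at 3710 and 3629 CPM in Huh7 and at 12152 and 13348 CPM in Hep3B. The groups did not overlap and Hep3B was 3.47-fold higher on average, with a log2 difference of -1.80 (SE 0.61, adjusted p = 0.024 by limma). That call was lost whenever any 1 parental library was left out, with adjusted p between 0.074 and 0.094. Per kilobase of exon, ALB still ranked first and AMBP, the precursor of alpha-1-microglobulin, second of the 41 listed genes in both lines. Here and below, exon length is that of the merged exons of all GENCODE transcripts of a gene. It can exceed that of the RefSeq mRNAs over which reads were counted, so such ranks are approximate.

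Carrier genes with a larger log2 difference pointed both ways. AHSG (fetuin-A) was at 22.5 and 43.6 CPM in Huh7 and at 387 and 773 CPM in Hep3B. CP (ceruloplasmin, the copper carrier) was at 3.61 and 6.0 CPM in Huh7 and at 64.3 and 157 CPM in Hep3B. Both were more than 4 log2 units lower in Huh7 (-4.08 and -4.16), and SERPINF1, which encodes pigment epithelium-derived factor, was lower by -2.50. In the other direction SAA4, a constitutive serum amyloid A, was at 16.4 and 45.6 CPM in Huh7 and at 0.727 and 0.760 CPM in Hep3B (log2 difference 4.03). SERPINA5, the protein C inhibitor, was at 293 and 350 CPM in Huh7 and at 81.3 and 94.9 CPM in Hep3B (1.85). That difference was absent from the DMSO libraries, where SERPINA5 was at 242.2 and 225.1 CPM in Huh7 and at 240.4 and 306.5 CPM in Hep3B (-0.22, adjusted p = 0.52 by limma). Several defining products did not pass the test: SERPINA1 (alpha-1-antitrypsin) was at 268 and 400 against 392 and 547 CPM, TF (transferrin) at 556 and 1109.9 against 405 and 927 CPM, and TTR (transthyretin) at 14.7 and 25.6 against 16.7 and 59.5 CPM. For these 3 the values of the lines overlapped.

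Fibrinogen chains stood higher in Huh7, while other clotting factors were mixed. FGA was at 1244 and 933 CPM in Huh7 and at 163 and 190 CPM in Hep3B, FGB at 693 and 712 against 58.9 and 61.3 CPM, and FGG at 411 and 348 against 104 and 134 CPM. No value of Hep3B reached those of Huh7 for any of the 3 chains, which assemble into a single protein. Their log2 differences were 2.61 (SE 0.69), 3.53 (SE 0.83) and 1.67 (SE 0.59), with adjusted p of 0.0065, 0.0034 and 0.030. The call of FGG did not hold without any 1 parental library (adjusted p 0.067 to 0.13). F7, which starts the tissue factor pathway, was higher in Hep3B, at 9.08 and 9.31 CPM in Huh7 and at 44.3 and 41.2 CPM in Hep3B. Of 17 tested coagulation genes 4 were higher in Huh7 and 3 in Hep3B (41.2%), a count of 7 that fell to 4 without Hep3B parental replicate 1 or either Huh7 parental library.

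Complement genes went both ways. MASP1, a protease of the lectin pathway, was at 104 and 138 against 13.2 and 13.8 CPM, and C5, which seeds the membrane attack complex, at 739 and 1028 against 160 and 207 CPM. C2, a protease of the classical pathway, was instead higher in Hep3B, at 5.75 and 5.71 against 35.5 and 30.3 CPM. C3, the central component, was at 484 and 554 CPM in Huh7 and at 853 and 1162 CPM in Hep3B and did not pass the test (log2 difference -0.94, adjusted p = 0.20). In all, 7 of 20 tested complement genes were higher in Huh7 and 5 in Hep3B (60.0%), and 7 rather than 12 were called with a pseudocount of 4 CPM.

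Lipoprotein genes went both ways. APOA2, the second protein of high density lipoprotein, was at 78.7 and 110 CPM in Huh7 and at 2449 and 2966 CPM in Hep3B. This 28.7-fold gap (log2 difference -4.84, SE 0.43, adjusted p = 1.5e-06) made it the first of the 23 listed lipoprotein genes per kilobase of exon in Hep3B and the second in Huh7. APOH was at 43.7 and 54.6 against 263 and 314 CPM, and APOE at 41.3 and 40.2 against 110 and 127 CPM. MTTP, which loads lipid onto APOB, was higher in Huh7, at 277 and 307 against 76.5 and 69.2 CPM. So was hepatic lipase (LIPC), at 176 and 198 against 29.8 and 22.1 CPM. Levels of APOA1, the main protein of high density lipoprotein, were 38.7 and 36.9 against 52.3 and 60.3 CPM and did not pass the test (adjusted p = 0.46). Of 17 tested genes, 4 were higher in either line (47.1% called in all), close to the share of all genes.

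Genes of amino acid, urea and bile acid metabolism were called in 15 of 21 tested cases (71.4%), 6 higher in Huh7 and 9 in Hep3B. HPD, which degrades tyrosine, was at 0.146 and 0.0670 CPM in Huh7 and at 11.6 and 12.1 CPM in Hep3B, and ASS1, the enzyme that makes argininosuccinate, was at 7.01 and 5.50 against 39.9 and 44.9 CPM. PC (pyruvate carboxylase), at 172 and 149 against 41.8 and 43.7 CPM, and HGD, a later step of tyrosine breakdown, at 207 and 229 against 81.9 and 83.2 CPM, were higher in Huh7. A further 15 of the 36 listed genes lay below the filter, among them ARG1, G6PC1 and CYP7A1, none of which exceeded 0.309 CPM in any parental library. With a pseudocount of 4 CPM only 8 of the 15 calls were made.

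Drug metabolism genes also went both ways. UGT2B7, a UDP-glucuronosyltransferase, was at 0.975 and 1.22 CPM in Huh7 and at 34.9 and 25.9 CPM in Hep3B, and its relatives UGT2B15 and UGT2B10 were also lower in Huh7 (log2 differences -2.81 and -2.43). These UGT2B genes are close in sequence, and with uniquely mapped reads their separate levels are uncertain. ASGR1, a subunit of the asialoglycoprotein receptor, was at 3.57 and 4.15 against 39.6 and 50.1 CPM. In the other direction, beside GSTP1, NNMT, which methylates nicotinamide, was at 28.3 and 11.5 CPM in Huh7 and at 0.0135 and 0 CPM in Hep3B, and SULT2A1 at 26.2 and 32.7 against 2.95 and 10.6 CPM. Of 29 tested genes 5 were higher in Huh7 and 8 in Hep3B (44.8%). The drug-metabolizing CYP1A2, CYP2E1 and CYP3A4 of adult liver reached at most 0.262 CPM, and SLC10A1, the bile acid importer, had no read in any parental library.

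Of the transcription factors of the hepatocyte network, 8 of 26 tested (30.8%, against 45.7% of all genes) were called, 4 higher in each line. HNF4A was at 232 and 203 CPM in Huh7 and at 191 and 198 CPM in Hep3B (log2 difference 0.16, SE 0.34, adjusted p = 0.72). The difference did not exceed its standard error. FOXA1, a pioneer factor, was lower in Huh7, at 18.9 and 29.5 against 79.2 and 96.0 CPM (log2 difference -1.84, SE 0.25, adjusted p = 6.4e-05). CREB3L3, a fasting-induced factor of the endoplasmic reticulum membrane, was higher in Huh7, at 41.3 and 25.03 against 0.256 and 0.478 CPM (4.61, SE 0.50, adjusted p = 8.3e-06). GATA6 was higher by 1.31. The count of 8 was 4 without Huh7 parental replicate 1.

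Of the oncofetal genes, 27 of 37 tested were called (73.0%, against 45.7% of all genes), 10 higher in Huh7 and 17 in Hep3B. Some of them, such as CLDN6, PEG3 and DLK1, entered the test through a single line, so this share follows in part from the filter. AFP was at 3549 and 6269 CPM in Huh7 and at 268 and 116 CPM in Hep3B. Although replicates differed within both lines, the groups were well apart, and AFP was 25.6-fold higher in Huh7 on average (log2 difference 4.73, SE 0.54, adjusted p = 1.3e-05). Per kilobase of exon AFP was the first of 38 oncofetal genes in Huh7 and the twelfth in Hep3B. Its neighbour ALB thus had the opposite direction, in the same libraries. SPINK1, a secreted trypsin inhibitor, was at 468 and 558 CPM in Huh7 and at 14.0 and 4.56 CPM in Hep3B. CLDN6, a tight junction protein of the embryo, was at 90.8 and 75.2 against 0.337 and 0.506 CPM. Both differed by more than 5.8 log2 units (5.81 and 5.88). LIN28B, which blocks maturation of let-7 microRNAs, was at 398 and 465 against 172 and 199 CPM (1.21).

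The fetal growth factor locus went the other way. IGF2 was at 283 and 265 CPM in Huh7 and at 1333 and 1777 CPM in Hep3B, 5.68-fold higher in Hep3B (log2 difference -2.49, SE 0.47, adjusted p = 0.00068), beside the difference in H19 from the same domain. RELN, a secreted glycoprotein, was at 6.98 and 7.26 CPM in Huh7 and at 694 and 662 CPM in Hep3B, and EPCAM, an adhesion molecule of hepatic progenitors, at 50.7 and 53.8 against 582 and 524 CPM. Hep3B was higher in every library for these genes. GPC3, the glypican that serves as a tissue marker of HCC, was shared by the lines, at 460 and 513 CPM in Huh7 and at 390 and 544 CPM in Hep3B (log2 difference 0.08, SE 0.48, adjusted p = 0.90). The RNA-binding protein IGF2BP1 was likewise at 364 and 376 against 359 and 425 CPM. LIN28A stayed at or below 0.512 CPM in all 4 libraries.

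Cancer-testis genes, which are normally confined to germ cells and lie mostly on chromosome X, were mostly below the filter (32 of the 46 listed genes in the table). Of the 14 tested genes 13 were called (92.9%), 6 higher in Huh7 and 7 in Hep3B, but a gene expressed in a single line entered the test through that line, so this share follows in part from the filter. MAGEB2 was at 217 and 195 CPM in Huh7 and at 0 and 0.0703 CPM in Hep3B, XAGE2 at 57.4 and 94.8 against 0 and 0.0422 CPM, and BRDT, a testis bromodomain protein, at 45.1 and 47.8 against 0 and 0.0281 CPM. PRAME was at 65.8 and 49.5 against 4.12 and 2.12 CPM. The MAGEA genes were on the side of Hep3B, with MAGEA3 at 0.407 and 0.147 CPM in Huh7 and at 25.7 and 27.1 CPM in Hep3B, and MAGEA6 at 0.538 and 0.147 against 11.6 and 19.4 CPM. MAGEA members share much of their sequence, and with uniquely mapped reads their separate levels are uncertain.

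RB1, the retinoblastoma gatekeeper of the cell cycle, was at 81.1 and 97.3 CPM in Huh7 and at 3.5 and 2.83 CPM in Hep3B (log2 difference 4.44, SE 0.16, adjusted p = 5.8e-10). Beside it on chromosome 13, LPAR6, which lies inside an intron of RB1, was at 11.1 and 14.7 against 8.39 and 8.59 CPM, and ITM2B at 206 and 234 against 89.01 and 103 CPM. The difference of LPAR6 did not pass the test (adjusted p = 0.19), and both neighbours were named after their values were seen. CDKN2A, the inhibitor of the kinases that phosphorylate RB1, was higher in Hep3B, at 9.82 and 8.12 against 60.7 and 59.8 CPM (-2.62, SE 0.20, adjusted p = 3.0e-07). RPS6KA3, a kinase recurrently mutated in HCC, was at 802 and 1038 CPM in Huh7 and at 47.8 and 71.4 CPM in Hep3B. Of 34 genes altered in HCC 8 were higher in either line (47.1% called), and AXIN1 was at 19.5 and 13.5 against 15.8 and 15.4 CPM.

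Feedback and target genes of Wnt signalling were called in 11 of 16 tested cases (68.8%), 4 higher in Huh7 and 7 in Hep3B. NKD1, a Wnt antagonist induced by the pathway, was at 0.0728 and 0.0938 CPM in Huh7 and at 18.1 and 18.2 CPM in Hep3B. DKK1, a secreted antagonist, was at 170 and 106 against 1102 and 964 CPM, and LGR5, an R-spondin receptor, at 10.6 and 7.63 against 34.1 and 40.9 CPM. These 3 were higher in every parental Hep3B library. AXIN2, the usual readout of the pathway, was at 4.67 and 4.14 against 3.69 and 4.53 CPM and did not differ beyond its error (0.08, SE 0.22). In the DMSO libraries, however, AXIN2 was called higher in Hep3B. OAT and BMP4 were higher in Huh7, by 2.13 and 1.55.

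Kinases inhibited by Sorafenib, the drug the study was about, differed at baseline in 7 of the 8 expressed cases (4 higher in Huh7, 3 in Hep3B, 87.5%). PDGFRA was at 107 and 189 CPM in Huh7 and at 26.0 and 42.6 CPM in Hep3B, whereas PDGFRB was at 0.189 and 0.522 against 3.90 and 5.67 CPM. The receptors of platelet-derived growth factor thus went opposite ways. BRAF was at 33.7 and 35.1 against 19.2 and 16.1 CPM. KDR, FLT4, KIT, RET, FLT3 and DDR2 were below the filter. Of 23 tested growth factors and receptors 7 were higher in Huh7 and 6 in Hep3B (56.5%): FGFR2 was at 8.13 and 6.88 CPM in Huh7 and at 79.3 and 70.4 CPM in Hep3B, EGFR at 292 and 293 against 173 and 134 CPM, and MET at 279 and 253 against 354 and 293 CPM, which did not pass. FGFR4 was at 114 and 97.5 against 106 and 109 CPM.

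Hypoxia and glycolysis genes of the study's interest, including the deubiquitinases it examined, were called in 7 of 26 tested cases (26.9%), 4 higher in Huh7 and 3 in Hep3B, which was the lowest share among lists of more than 1 tested gene. HIF1A, the oxygen-regulated subunit, was at 814 and 1138 CPM in Huh7 and at 308 and 339 CPM in Hep3B (log2 difference 1.57, SE 0.22, adjusted p = 7.1e-05). LDHA, which makes lactate, was at 1738 and 1885 against 500 and 629 CPM. HK2, hexokinase 2, was instead higher in Hep3B, at 131 and 130 against 217 and 321 CPM, and EPAS1, the paralogue of HIF1A, was at 143 and 187 against 132 and 196 CPM. This list was taken from genes the study took up, so it is not an independent choice.

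Epithelial and mesenchymal genes were called in 20 of 27 tested cases (74.1%), 12 higher in Huh7 and 8 in Hep3B. Beside ESRP1 and EPCAM, the keratin KRT23 was at 7.57 and 21.6 CPM in Huh7 and at 478 and 483 CPM in Hep3B, and KRT80 at 0.189 and 0.0268 against 53.5 and 19.3 CPM. On the side of Huh7 were SPARC, at 12.02 and 8.16 against 0.121 and 0.169 CPM, CAV1, at 113 and 56.0 against 14.3 and 14.8 CPM, and the calcium-binding S100A6, at 329 and 184 against 26.4 and 16.3 CPM. LGALS1 (galectin-1), usually counted with mesenchymal genes, was an exception with 4.77 and 1.22 against 59.8 and 51.7 CPM. Vimentin (VIM) was at 1261 and 1120.1 against 754 and 669 CPM and E-cadherin (CDH1) at 33.6 and 28.01 against 84.1 and 80.2 CPM. Their log2 differences of 0.74 and -1.39 passed the test (adjusted p = 0.023 and 0.029), but neither call held without any 1 parental library (adjusted p 0.053 to 0.12 and 0.069 to 0.12).

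Antigen presentation and interferon genes leaned to Hep3B, with 2 of 18 tested genes higher in Huh7 and 9 in Hep3B (61.1%). HLA-C was at 2.30 and 0.830 CPM in Huh7 and at 21.8 and 24.4 CPM in Hep3B, and CD74, the invariant chain of class II, at 0.0146 and 0 against 20.4 and 19.3 CPM. IFITM3, an interferon-induced membrane protein, was at 5.82 and 2.36 against 159 and 121 CPM. B2M, the light chain that all class I molecules need, was at 383 and 263 against 375 and 410 CPM and did not pass the test (log2 difference -0.31, adjusted p = 0.18). Of 39 HOX genes 25 were below the filter, and 13 of the 14 tested were called (92.9%), a share that also follows in part from genes that entered the test through a single line. HOXA3, HOXA5, HOXA7 and HOXA2 were higher in Hep3B, with log2 differences from -2.39 (HOXA3) to -1.81 (HOXA2). HOXC10, at 20.4 and 18.1 CPM in Huh7 and at 0 and 0.0141 CPM in Hep3B, HOXC13, HOXA11 and HOXC9 were higher in Huh7.

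Genes silent in 1 line were taken as those with at most 0.1 CPM in both parental libraries of that line and at least 5 CPM in both of the other, which is a choice on these values and not a test. There were 96 genes silent in Huh7 and 90 silent in Hep3B. The former were 90 protein-coding genes and 6 long noncoding RNAs, and the latter 77 coding genes, 12 long noncoding RNAs and 1 pseudogene. No read at all was found in either replicate for 22 and 16 of them. Their median level in the other line was 14.3 and 14.0 CPM. Just inside the limits were ZNF793 (0.0938 CPM at most in Huh7) and CDH17 (0.0985 CPM at most in Hep3B), and just outside were AMZ1 (0.102 CPM) and KLRK1-AS1 (0.108 CPM). At the other limit, RPS6KA6 was inside with 5.09 CPM at least in Hep3B and CRACR2A outside with 4.95 CPM. MT1F was inside with 5.04 CPM at least in Huh7 and LINC00351 outside with 4.77 CPM.

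The highest of the genes silent in Huh7 came from the imprinted domain of chromosome 15. SNRPN, whose product acts in splicing (chromosome 15, 25068784 to 25223870), was at 292 and 308 CPM in Hep3B and at 0.0728 and 0 CPM in Huh7. PWAR5 from the same domain was at 81.7 and 75.3 CPM in Hep3B and had no read in Huh7, at least 3752-fold lower with 3 reads over both libraries as the limit. IPW, at 48.6 and 41.5 CPM in Hep3B, and PWARSN, at 41.9 and 40.7 CPM, were silent in Huh7 as well. All of these are expressed in normal cells from the paternal copy only. Other imprinted genes, named after their values were seen, were PEG3, at 15.01 and 21.8 CPM in Hep3B against 0.0437 and 0 CPM in Huh7, and NAP1L5, at 7.97 and 6.23 against 0.0146 and 0.0134 CPM. DLK1 had no read in Huh7 and was at 3.46 and 11.6 CPM in Hep3B, below the limit of the rule. MKRN3, upstream in the chromosome 15 domain, was the reverse, at 5.92 and 5.04 CPM in Huh7 and at 0.0404 and 0 CPM in Hep3B. Imprinted genes were thus not low in Huh7 throughout, and MEST was at 454 and 655 CPM there against 174 and 161 CPM in Hep3B.

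In all, 28 of the 96 genes silent in Huh7 lay on chromosome X (29.2%, against 3.35% of the tested genes), and 7 of the 90 silent in Hep3B did (7.78%). In places they were neighbours. SH3BGRL, RPS6KA6, HDX, APOOL, ZNF711 and CHM formed a run of 6 among the tested genes with a GRCh37 position, between 80457601 and 85302565 on chromosome X. CHM, which escorts Rab proteins to their lipid modification, was at 61.2 and 56.4 CPM in Hep3B and at 0.0437 and 0 CPM in Huh7. Other genes of chromosome X, named after their values were seen, were expressed in Huh7. LAS1L was at 79.4 and 68.9 CPM in Huh7 against 43.9 and 49.6 CPM in Hep3B. YIPF6 was at 132 and 139 against 100.4 and 87.7 CPM, and RPS4X at 1008 and 973 against 474 and 519 CPM. The log2 difference of YIPF6 (0.53) fell short of the limit for a call. That of LAS1L lay between 0.553 and 0.755 with 1 parental library left out. MSN, at chromosome X 64808257 to 64961793, lies close to LAS1L. Genes with a symbol that begins with ZNF, the antisense RNA ZNF667-AS1 among them, made up 13 of the genes silent in Huh7 (13.5%) and 2 of those silent in Hep3B, against 3.61% of tested genes.

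Of the 90 genes silent in Hep3B, 10 lay on chromosome 8, 8 on chromosome 7 and 7 each on X, 12 and 17. Of the 13534 tested genes, 458 lay on chromosome 8, 682 on 7, 454 on X, 731 on 12 and 805 on 17. AKR1B1, aldose reductase, was at 135 and 95.1 CPM in Huh7 and at 0.0404 and 0.0563 CPM in Hep3B. DNAJC15, a mitochondrial cochaperone (chromosome 13, 43597339 to 43688349), was at 55.7 and 49.4 against 0.0269 and 0.0141 CPM, and TAL1, a transcription factor of blood formation, at 70.5 and 97.1 against 0.0135 and 0.0563 CPM. MUC15, a membrane mucin, was at 45.8 and 55.4 CPM in Huh7 without a read in Hep3B (at least 2452-fold lower), and RFPL4B was at 47.5 and 55.6 CPM, also without a read. MGLL, which releases fatty acids from monoglycerides, and OLR1, a receptor of oxidized low density lipoprotein, were at 53.1 and 65.9 and at 70.6 and 61.9 CPM in Huh7, with at most 0.0422 CPM in Hep3B.

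Silent genes were then read in the libraries that had not chosen them. Huh7 DMSO replicate 2 stood apart: it held reads for 95 of the 96 genes silent in parental Huh7, at a median of 1.21% (quartiles 0.809% to 2.00%) of their level in parental Hep3B, whereas the median was 0.0130% to 0.226% in the 7 other Huh7 libraries. The cause was not tested. Counts of silent genes and of calls in the DMSO libraries are given with and without this library. Differences of single genes and chromosome medians in the DMSO libraries include it. Of the 90 genes silent in Hep3B, 79 (87.8%) were at most 0.1 CPM in both Hep3B DMSO libraries, 75 in both IR and 64 in both CR libraries, and 54 (60.0%) in all 8 Hep3B libraries. Of the 96 genes silent in Huh7, 18 were at most 0.1 CPM in both DMSO libraries and 16 in all 8 Huh7 libraries. Without Huh7 DMSO replicate 2 the numbers were 85 in the remaining DMSO library and 52 (54.2%) in the 7 other Huh7 libraries. None of the genes silent in parental Hep3B reached 5 CPM in all 4 Hep3B-IR and CR libraries, and 2 of those silent in parental Huh7 did, which are named with SLFN5 after their values were seen. PLXDC2, a membrane protein, went from 0.0728 and 0.0402 CPM in parental Huh7 to 130 and 74.2 CPM in Huh7-IR and 89.1 and 105 CPM in Huh7-CR cells. ADAM19, a metalloprotease, went from 0.0873 and 0 CPM to 16.9 and 9.63 and to 53.1 and 39.3 CPM. SLFN5 missed that limit in 1 library, at 94.2 and 76.1 CPM in Huh7-IR and 13.6 and 4.35 CPM in Huh7-CR against 0.0437 and 0.0402 CPM in parental cells.

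By chromosome, the line difference had unequal medians. Genes of chromosome 21 had a median log2 difference of -0.64 (123 tested genes), those of chromosome 6 of -0.46, chromosome 15 of -0.37 and chromosome 4 of -0.36, compared with -0.06 for all genes. On the other side were chromosome X at 0.40, chromosome 13 at 0.27, chromosome 12 at 0.21 and chromosome 22 at 0.20. In the DMSO libraries the medians were -0.44 for chromosome 21, -0.37 for chromosome 6, -0.42 for chromosome 15 and 0.48 for chromosome X. Chromosomes 4 and 12 were nearer to 0 there (-0.06 and 0.02), and 9 and 10 changed sign (0.13 to -0.22 and -0.09 to 0.15). The quartiles within a chromosome ran, for example, from -0.52 to 0.36 on chromosome 2 and from -0.78 to 1.00 on chromosome 13. Chromosome X had both the highest median and the most genes silent in Huh7. These medians are given without a test and without a correction for GC content, and copy number was not measured.

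**Figure D1:**
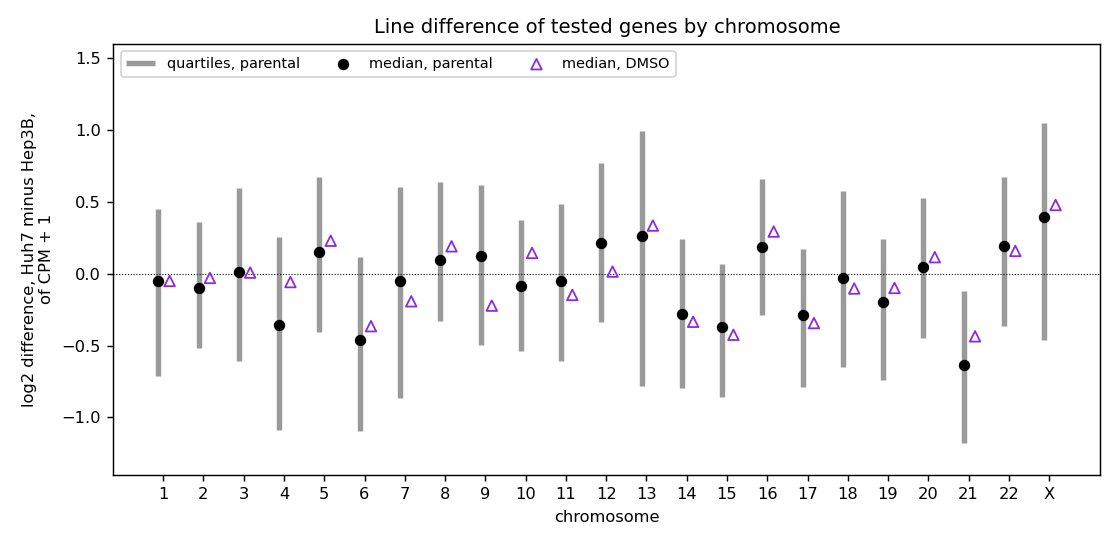
Median log2 difference (Huh7 minus Hep3B, of CPM + 1) of the tested genes of each chromosome, with dots for parental libraries, grey bars for their quartiles and open triangles for the DMSO libraries. Chromosome 21 lay lowest (-0.64) and X highest (0.40) in the parental libraries, and the quartile bars of all chromosomes except 21 crossed 0.

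The same line difference was then tested in the DMSO libraries, which share no library with the parental contrast but share its estimate of the spread. Of the 6182 parental calls, 6032 (97.6%) had the same sign there and 4777 (77.3%) were called with the same sign. Without Huh7 DMSO replicate 2 the counts were 6060 (98.0%) and 4673 (75.6%). GSTP1 differed by 8.37 in the DMSO libraries, RB1 by 4.68, AFP by 2.88, APOA2 by -3.21 and H19 by -8.79, where the Huh7 DMSO libraries held 1.26 CPM (replicate 1) and 46.3 CPM (replicate 2) of H19. ALB differed by -0.76 only, against -1.80 in parental cells. The difference of the line difference, an interaction contrast of the same fit, was called for 72 genes (26 positive, 46 negative), and 1717 genes had an unadjusted p below 0.05. This count was 51 without Huh7 DMSO replicate 2, 862 without Huh7 DMSO replicate 1 and 19 to 47 without any 1 of the other 6 libraries.

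SEMA5A, an axon guidance molecule, had the largest such difference among the 72. It was at 0.684 and 0.362 CPM in parental Huh7 against 21.3 and 27.8 CPM in parental Hep3B, but at 5.46 and 11.2 against 2.65 and 4.87 CPM in the DMSO libraries, so the direction turned (log2 differences -4.07 and 0.94, adjusted p = 0.00027 for the interaction). MAGEA3 was at 2.43 and 3.46 CPM in Huh7 DMSO and at 2.22 and 3.88 CPM in Hep3B DMSO libraries, and its parental difference of -4.43 was -0.02 there (adjusted p = 0.00027). Both differences were called whichever of the 8 libraries was left out. COL4A5, a basement membrane collagen, was at 99.6 and 89.3 CPM in parental Huh7 against 1.84 and 2.55 CPM in parental Hep3B, and Hep3B rose to 35.0 and 48.5 CPM in the DMSO libraries (4.91 against 1.07). That interaction (adjusted p = 0.020) was called in only 1 of the 8 fits that leave out a library. PEG10, an imprinted gene of retroviral origin named after its values were seen, was higher in parental Huh7 (645 and 1200 against 241 and 471 CPM) and lower in Huh7 DMSO libraries (910 and 625 against 2017 and 1872 CPM). The interaction of PEG10 (adjusted p = 0.028) was called in 3 of the 8 such fits, and its parental call was lost without Hep3B parental replicate 1 or Huh7 parental replicate 2 (adjusted p up to 0.069).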

How the data were processed

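RNA of the 16 libraries was sequenced by the authors, who aligned reads to the human genome (hg19) with STAR, kept unique hits and counted them over the exons of RefSeq mRNAs. The labels and the study's methods differ on the library kit, the instrument, the read length and the number of replicates. The deposited values are CPM per gene (reads scaled to the library's total), and whole reads were recovered from them (100% of values within 0.05 reads of a whole number). Of 26258 genes, the 13534 that reached 1 CPM in 2 or more parental libraries were tested.

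The difference between the lines was fitted with limma (version 3.58.1, R 4.3.3) on log2(CPM + 1), with a pseudocount of 1 CPM, in a model of 8 groups and 16 libraries with an intensity trend and Benjamini-Hochberg adjustment over all tested genes. Fold changes on this scale understate the change of low genes. The script was first tested on simulated data. edgeR (4.0.16) and DESeq2 (1.42.0) on the recovered reads, other scalings, pseudocounts and filters, a correction for GC content, and each library left out served as alternatives. GRCh37 positions were found for 24110 genes. Genes were named as the anchors of each list, its 4 largest calls in each direction, the 10 largest calls of all genes, the 10 highest silent genes and the 2 largest interactions in each direction, leaving out genes of chromosome Y and 1 gene of chromosome X. Some genes that met this rule are not reported here. Members and lists were chosen with earlier results of these data known. Promoter windows of 250 bases came from RefSeq on GRCh38.p14, a different build from that of the counts. Fewer than 80% of the genes of most sets had a window, so sets of promoters were not compared. Parental replicates correlated at r of 0.992 and 0.993 across genes and differed by more than counting noise. The difference between the replicates followed GC content in parental Huh7 (Spearman correlation 0.564) but not in parental Hep3B (-0.0053). Python 3.11.15 with numpy 2.4.6, pandas 2.3.3 and matplotlib 3.10.9 was used for tables and plots.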

Additional observations from a re-analysis of the deposited data

Results flagged for a closer look

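For 14 named genes the difference between Huh7 and Hep3B was not the same in the parental and the DMSO libraries, by an interaction contrast of the limma model (adjusted p below 0.05 over all tested genes). A negative value means a lower Huh7 level, relative to Hep3B, in the parental than in the DMSO libraries. The log2 interaction was -5.00 for SEMA5A, -4.41 for MAGEA3, -1.85 for MAGEA2 and -1.83 for MAGEA2B, and these 4 were called whichever of the 8 libraries was left out. MAGEA2 and MAGEA2B are near-identical copies, so they count as a single signal. MAGEA6 had -2.55 (called in 6 of 8 such fits), CHODL -3.01 (3 of 8) and APOC2 -1.74 (3 of 8). In the positive direction PEG3 had 2.60 (7 of 8). PEG10 had 2.75 and NNMT 2.34 (3 of 8 each). COL4A5 had 3.84, L1CAM 2.83, SERPINA5 2.07 and FGFR2 1.49, each called in 1 of 8 fits. By edgeR on the recovered reads, SEMA5A, MAGEA3, MAGEA2B, APOC2 and COL4A5 kept an adjusted p below 0.05. It was 0.052 for MAGEA2, 0.059 for SERPINA5, 0.063 for PEG10, 0.084 for L1CAM and 0.086 for MAGEA6. For FGFR2 it was 0.090, for CHODL 0.13, for NNMT 0.33 and for PEG3 0.9999. By DESeq2 all but NNMT (adjusted p = 0.16) and PEG3 (0.999) stayed below 0.05. The calls of CHODL, APOC2, PEG10, NNMT, COL4A5, L1CAM, SERPINA5 and FGFR2 were among those lost without Huh7 DMSO replicate 2. The cause of these differences was not tested.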

How the results depend on the processing

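The count of 6182 parental calls lay between 3715 and 6517 over the alternatives. It fell to 3715 (1604 higher in Huh7, 2111 in Hep3B) with a log2 difference of at least 1, and leaving out 1 parental library gave 5410 to 5528. The difference between the parental and DMSO contrasts was called for 72 genes, against 117 with no filter, 110 with a GC correction, 117 with a replicate block and a GC correction, 42 by edgeR and 428 by DESeq2, and 19 to 862 with 1 library left out. With a limit of at least 1 CPM in the other line, 219 genes were silent in Huh7 and 240 in Hep3B, 459 in all. With the DMSO libraries in place of the parental ones, 21 were silent in Huh7 and 119 in all, or 111 in Huh7 and 223 in all without Huh7 DMSO replicate 2. Also in the DMSO libraries, the sign turned for APOC2 (0.90), AXIN2 (-0.87), L1CAM (-2.62), LYZ (-1.09), NR0B2 (0.038), SEMA5A (0.94), SERPINA3 (-1.51), SERPINA5 (-0.22) and PEG10 (-1.37), and the cause was not tested. Of 181 named calls, 148 were made in all 4 fits that leave out a parental library, and 8 (ALB, BBC3, C6, CDH1, F2, FGG, NR0B2, VIM) in none. Same-numbered replicates share only a number (r of deviations 0.24 between the parental groups, with 2 pairs). The replicate block gave 6180 parental calls, and of the named calls it lost AREG, BAAT and TAPBP and gained C3. With 2 libraries a group, differences within the spread between replicates were not detectable.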
